A study of Mus musculus with 16 samples.

Results

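In embryonic mouse retina, 564 genomic regions carried a Foxn3 peak and an Rfx3 peak, had no Foxn4 peak, and lay away from the ends of protein-coding genes. They were chosen by merging all peaks of the 3 factors that overlapped by at least 1 bp, which gave 6155 regions, and by keeping those with Foxn3 and Rfx3 but not Foxn4 whose midpoint was over 1 kb from both ends of every RefSeq protein-coding gene (9.16% of all regions). The choice therefore rests on the peak calls themselves, and the peaks' presence, scores and widths are described here without a test.

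Peaks came from CUT&RUN, in which an antibody on a chromatin protein tethers micrococcal nuclease, so that nearby DNA is released and sequenced. The tissue was retina of CD-1 mice, an outbred stock, at embryonic day 16, with retinas of several embryos combined before dissociation and about 300000 cells per assay. The 8 antibody libraries were 4 for Foxn3, 2 for Foxn4 and 2 for Rfx3, beside 8 immunoglobulin G (IgG) libraries, rabbit for Foxn3 (4) and Rfx3 (2) and mouse for Foxn4 (2). All embryos were of the same stock and age, and no library carried a mutation or a drug treatment. Nuclease digestion lasted 1 h for Foxn3, Rfx3 and the rabbit IgG, and about 12 h for Foxn4 and the mouse IgG, so the absence of a Foxn4 peak cannot be told apart from the effect of a different digestion, control and antibody. The deposited lists, 1 per antibody, held 2794 Foxn3, 2956 Foxn4 and 3981 Rfx3 peaks. They do not separate libraries, so no value here has a spread between replicates, p-values describe these lists and not repeated experiments, depth is unknown, and IgG background was not analysed here. The retina is a mixture of progenitors and young neurons, and the lists do not tell in which cells a site was bound.

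Rfx3 belongs to the RFX family of winged-helix transcription factors, which bind the X-box, an inverted repeat of a short site beginning with GTTGCC, and are best known as activators of genes for cilia. Foxn3 and Foxn4 are forkhead factors of the FOXN subfamily: Foxn4 is expressed in retinal progenitors and is needed for amacrine and horizontal cells, whereas Foxn3 is widely expressed and often described as a repressor. FOXN proteins can bind a short site with the core GACGC as well as the common forkhead site GTAAACA. A primary cilium is the single sensory cilium of most cells and carries Hedgehog signalling in progenitors, and in photoreceptors it becomes the outer segment. Motile cilia share its microtubule skeleton but add dynein arms and other axonemal parts.

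Being far from gene ends did not mean being far from every annotated start of transcription. RefSeq lists several starts for many genes, and also starts of long non-coding RNAs (lncRNAs), and 117 of the 547 regions on chromosomes with start sequences overlapped a start window (250 bases before to 50 after a start). The sequences below, from RefSeq start windows on GRCm38.p6 (mm10) and written 5′ to 3′ on the strand of transcription, show the X-box letters in these windows. Capitals mark the match, with up to 40 bases on each side within the window. The first set holds paired X-box sites, GTNNCC and GGNNAC separated by up to 3 bases. Gm36472 is an lncRNA whose start lies near Kif1a.
Mast3 (chr8:70792384-70792441, minus strand): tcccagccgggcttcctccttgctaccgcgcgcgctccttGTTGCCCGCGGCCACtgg
Gm36472 (chr1:93115223-93115316, plus strand): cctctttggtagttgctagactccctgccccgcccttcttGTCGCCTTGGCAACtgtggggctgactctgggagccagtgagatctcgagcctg
Cep41 (chr6:30693826-30693920, minus strand): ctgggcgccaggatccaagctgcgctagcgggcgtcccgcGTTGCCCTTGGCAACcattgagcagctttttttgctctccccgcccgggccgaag
Lca5 (chr9:83441105-83441199, minus strand): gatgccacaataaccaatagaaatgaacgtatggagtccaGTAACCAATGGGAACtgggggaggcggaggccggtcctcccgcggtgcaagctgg
Six3 (chr17:85620673-85620766, plus strand): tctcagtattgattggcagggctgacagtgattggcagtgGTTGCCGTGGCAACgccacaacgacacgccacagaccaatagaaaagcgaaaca
In all 5 windows the capitals lay inside the merged peak region, but not always near the peak midpoints. Their distances from the Foxn3 and Rfx3 midpoints were 358.5 and 414.5 bp in Mast3 and 51.5 and 18.5 bp in Gm36472. They were 32.5 and 163 bp in Cep41, 21.5 and 43.5 bp in Lca5, and 26.5 and 182.5 bp in Six3. In Cep41 and Six3 both arms of the inverted repeat were complete GTTGCC sites, 1 on each strand. The second set holds GTTGCC sites in windows without a paired match as defined above, at some genes of motile cilia and at Rfx3 itself. They lie on either strand (GGCAAC on the printed strand where the match was on the other). Looser second arms, such as agcaac after GTTGCC in Ttll9, were not counted as pairs.
Ttll9 (chr2:152962434-152962519, plus strand): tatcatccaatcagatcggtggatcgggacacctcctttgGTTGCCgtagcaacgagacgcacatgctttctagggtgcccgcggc
Cfap161 (chr7:83794860-83794945, minus strand): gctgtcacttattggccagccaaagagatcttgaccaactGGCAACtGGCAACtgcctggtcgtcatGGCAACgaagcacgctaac
Cfap74 (chr4:155409163-155409248, plus strand): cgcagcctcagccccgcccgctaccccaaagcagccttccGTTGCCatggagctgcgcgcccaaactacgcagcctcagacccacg
Dnaic2 (chr11:114727353-114727438, plus strand): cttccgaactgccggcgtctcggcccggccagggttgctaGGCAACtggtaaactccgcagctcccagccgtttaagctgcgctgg
Dnaaf2 (chr12:69198393-69198478, minus strand): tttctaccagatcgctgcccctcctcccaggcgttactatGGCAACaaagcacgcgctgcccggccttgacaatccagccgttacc
Rfx3 (chr19:28011117-28011175, minus strand): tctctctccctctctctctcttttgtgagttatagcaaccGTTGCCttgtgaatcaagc
These 6 windows also had their printed match inside the region. Cfap161 had 3 matches in the bases printed, all on the opposite strand from the transcript. In Rfx3 the match lay 1.5 bp from the midpoint of the Foxn3 peak and 71.5 bp from that of the Rfx3 peak. In Cfap74 the printed match was farther, 259.5 and 236 bp from these midpoints. Among other motile cilium genes at a start, Tekt4 had a paired match outside its region and a GTTGCC inside it. The windows of Ak7, Meig1 and Cfap221 held neither kind of site.

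The Foxn3 and Rfx3 peaks of a region overlapped by the rule that chose them, which by itself keeps their midpoints close. The distances and nesting below are therefore a description and no finding. In 560 of the 564 regions there was 1 peak of each factor, and the other 4 held 2 Foxn3 peaks. Their midpoints differed by 48.5 bp in the median region (quartiles 20 and 91.6 bp, highest 528 bp), and 444 regions (78.7%) had them within 100 bp. The distance was much the same in distal regions that also had a Foxn4 peak (median 46 bp, 345 regions). Rfx3 peaks were the broader of the pair in 462 regions (81.9%), with a median width of 452 bp against 320 bp for Foxn3. The Foxn3 peak lay wholly inside the Rfx3 peak in 342 regions (60.6%) and the reverse held in 43 (7.62%). Merged regions had a median width of 486 bp (quartiles 385 and 656 bp), narrower than distal regions with all 3 factors (658 bp) and wider than distal regions with Rfx3 alone (391 bp).

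**Figure D1:**
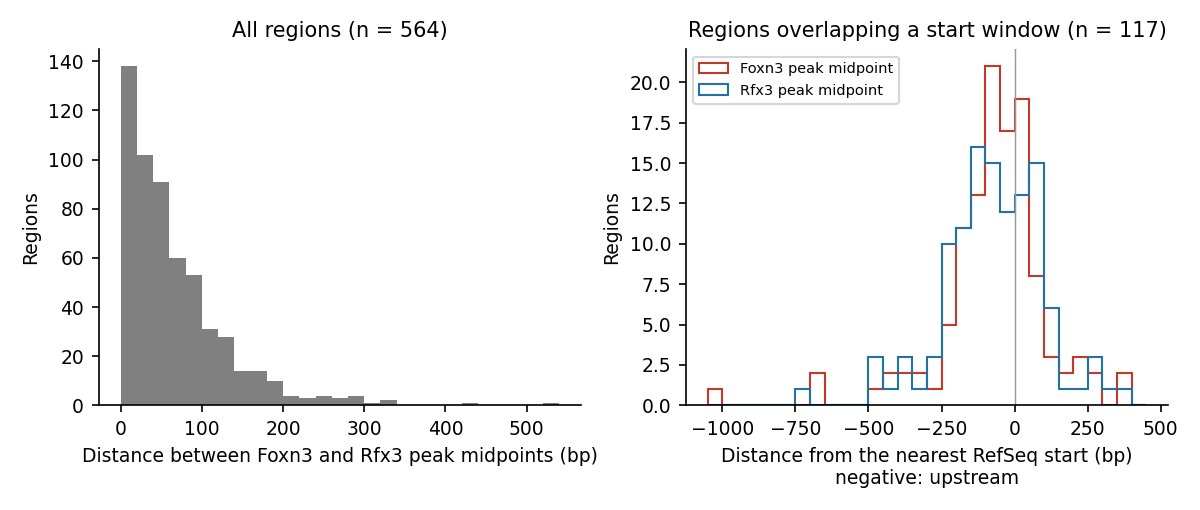
Left, histogram of the distance in bp between the midpoints of the Foxn3 and Rfx3 peaks of each of the 564 regions, where 444 lie at 100 bp or less. Right, position in bp of both peak midpoints relative to the nearest RefSeq start for the 117 regions that overlap a start window (negative values are upstream), where the medians are -57.5 bp for Foxn3 and -68 bp for Rfx3.

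Each deposited peak carries a score given by the authors, whose size is not comparable between lists, so each peak was ranked within its own list, with percentile 100 for the highest score. Rfx3 scores in these regions ran from 18 to 2545 with a median of 156, against 76 over the whole Rfx3 list, and the median percentile was 73.5 (quartiles 55.4 and 85.6). Foxn3 scores ran from 7.48 to 680 with a median of 41.1, against 29.9 over the Foxn3 list, a median percentile of 63.0 (44.8 and 77.9). Ranks were lower at distal regions with all 3 factors, where the medians were 36.9 for Foxn3 and 35.3 for Rfx3, and at distal regions with Rfx3 alone (45.9). They were close to those at gene ends with the same pair of factors (67.2 and 71.3, 797 regions). Both peaks stood at or above percentile 75 in 141 regions (25.0%), and in 20 (3.55%) both stood below percentile 25. Across the 564 regions the scores of the factors had a Spearman rho of 0.608, against 0.691 across the 797 gene-end regions. These are descriptions across regions, which share libraries, and carry no test.

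**Figure D2:**
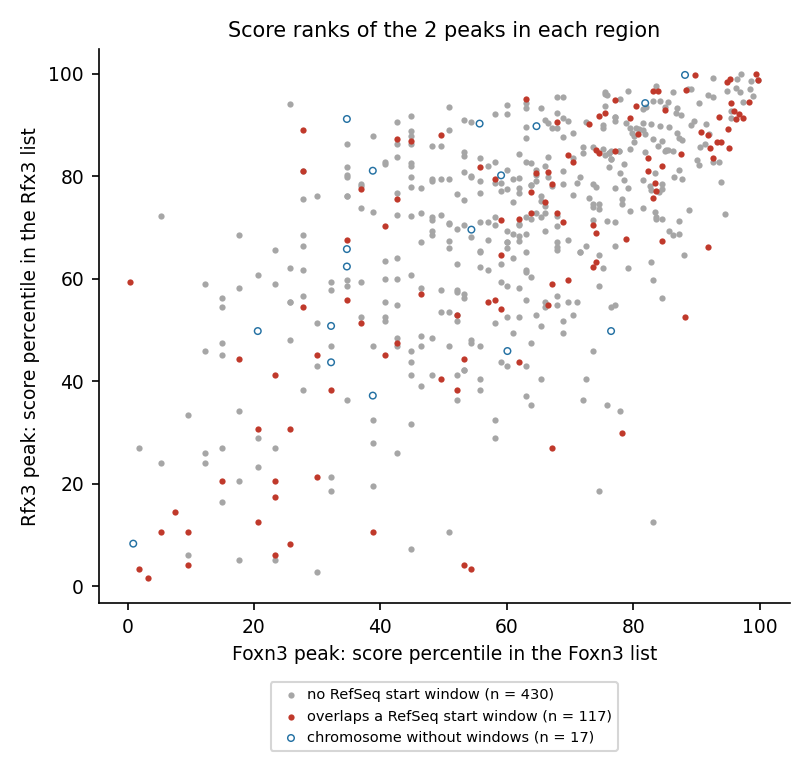
Each point is 1 of the 564 regions, placed by the within-list score percentile of its Foxn3 peak (horizontal axis) and of its Rfx3 peak (vertical axis). Red points overlap a RefSeq start window (117), grey points do not (430), and open circles lie on a chromosome without start windows (17). Points concentrate at the upper right, where 141 regions have both peaks at or above percentile 75, and red points occur over the whole range.

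The absence of an overlapping Foxn4 peak was part of the rule. Distances to the nearest Foxn4 peak are given without an expected value, so they do not tell whether it was near or far. The nearest Foxn4 peak lay a median of 155110 bp from the region (quartiles 55379 and 402516 bp), and 7 regions (1.24%) had one within 1 kb, the closest at 26 bp. The regions were spread over the genome: they made up between 6.11% and 12.3% of all merged regions of a chromosome. Another region of the same kind lay within 10 kb of 34 (6.03%) and within 100 kb of 121 (21.5%).

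The midpoints lay between 1003 and 886135 bp from the nearest end of a protein-coding gene, with a median of 12528 bp (quartiles 3604 and 39226 bp). Of the regions, 78 (13.8%) lay 1 to 2 kb from an end, 178 (31.6%) 2 to 10 kb, 252 (44.7%) 10 to 100 kb and 56 (9.93%) farther. Medians were larger in the other distal classes: 31338 bp with all 3 factors, 21570 bp with Rfx3 alone and 55056 bp with Foxn4 alone. At the 1 kb limit that defines the set, the nearest regions left out with the same pair of factors lay 952 bp from an end of Fam222a (Foxn3 score 60.7, Rfx3 103), 957 bp from Ireb2 (45.8 and 67) and 960 bp from Ap3m2 (44.9 and 201). Just past the limit were regions 1003 bp from an end of Nipal3 (36.4 and 205), 1017 bp from Jund (88.8 and 556) and 1053 bp from Pbx3 (20.6 and 172).

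**Figure D3:**
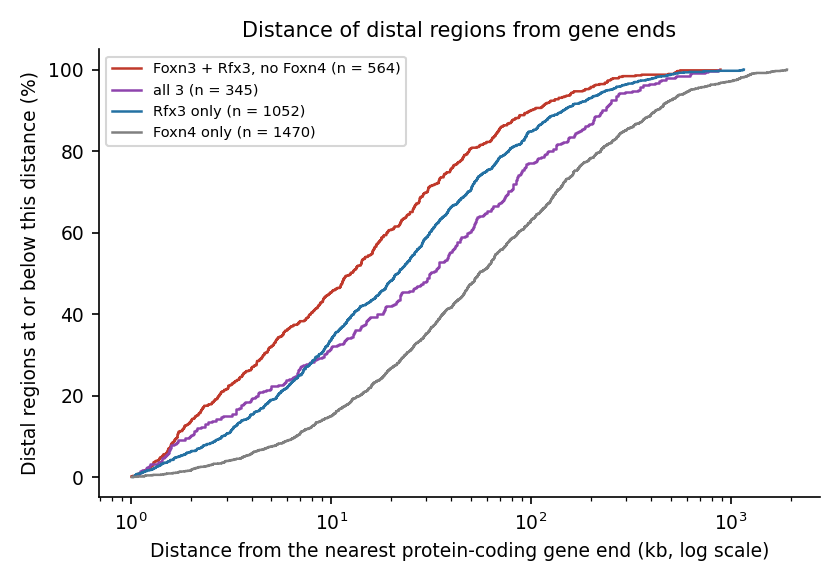
Cumulative share of distal regions (vertical axis, percent) at or below a given distance in kb from the nearest end of a protein-coding gene (horizontal axis, log scale), for the 564 regions with Foxn3 and Rfx3 and no Foxn4 and for the other 3 distal classes. The line for the 564 regions lies to the left, with a median of 12528 bp against 21570, 31338 and 55056 bp.

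Most regions lay within genes. The midpoint was inside a protein-coding gene in 344 of 564 regions (61.0%, 95% Wilson interval 56.9% to 64.9%, which covers counting error only), and the genes that held them had a median length of 59.1 kb (quartiles 23.9 and 154 kb). The share was 54.3% at distal regions with Rfx3 alone (571 of 1052, odds ratio 1.32, 95% interval 1.07 to 1.62, Fisher's exact test, two-sided, adjusted p = 0.0148) and 43.0% at those with Foxn4 alone (632 of 1470, odds ratio 2.07, 1.70 to 2.53, adjusted p = 1.11e-12). Against distal regions with all 3 factors (55.9%, 193 of 345) the odds ratio was 1.23 (0.939 to 1.62, Fisher's exact test, adjusted p = 0.144), so no difference was detected. Adjustment was by Benjamini-Hochberg over the 3 comparisons. The difference from Rfx3 alone did not hold when regions overlapping start windows were left out (odds ratio 1.18, Fisher's exact test, adjusted p = 0.160), over 5 kb from gene ends (1.08, adjusted p = 0.539) or with peaks at or above the median score (1.25, adjusted p = 0.148). That last setting, here and below, also drops weaker Foxn4 peaks, so regions with such a peak can enter the set. Exons and introns were not distinguished.

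Each region was linked to the protein-coding gene that held its midpoint or, outside genes, to the gene with the nearest end. The link is one of position, and no expression was measured. The linked gene also had a Foxn3 or Rfx3 region at one of its ends in 109 cases (19.3%, 16.3% to 22.8%). That was more often than for distal regions with Rfx3 alone (14.3%, odds ratio 1.44, 1.10 to 1.89, Fisher's exact test, adjusted p = 0.0155) and with Foxn4 alone (10.5%, odds ratio 2.03, 1.56 to 2.65, adjusted p = 1.31e-06). For distal regions with all 3 factors the share was 16.5% (odds ratio 1.21, 0.851 to 1.72, Fisher's exact test, adjusted p = 0.331). Both differences missed the threshold when only peaks at or above the median score of their list were kept (odds ratios 1.23 and 1.74, Fisher's exact test, adjusted p = 0.680 and 0.0688), and that from Rfx3 alone also did with regions over 500 bp from gene ends (1.30, adjusted p = 0.131). The peaks at gene ends come from the same Foxn3 and Rfx3 lists that define the classes, so these shares are no independent evidence. Median distance from gene ends also differed, 12528 bp here against 21570 bp with Rfx3 alone and 55056 bp with Foxn4 alone. The part of distance was not tested.

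The 117 regions at start windows made up 21.4% of the 547 on chromosomes with start windows (18.2% to 25.0%). Windows of protein-coding genes were met by 82 regions and windows of lncRNAs by 44, with 9 regions meeting both kinds. Seen from the other side, these regions overlapped 149 of 32851 start windows (0.454%). The share was 9.75% at distal regions with Rfx3 alone (99 of 1015, odds ratio 2.52, 1.88 to 3.37, Fisher's exact test, adjusted p = 8.02e-10) and 1.69% with Foxn4 alone (24 of 1420, odds ratio 15.8, 10.1 to 24.9, adjusted p = 1.98e-45), an odds ratio that was 6.84 with peaks at or above the median score of their list. It was 18.9% with all 3 factors (63 of 333, odds ratio 1.17, 0.828 to 1.64, Fisher's exact test, adjusted p = 0.390), not detectably different. That comparison changed with the setting: regions over 5 kb from gene ends gave an odds ratio of 1.95 (Fisher's exact test, adjusted p = 0.00741) and peaks at or above the median score 0.656 (adjusted p = 0.199). Region width differed between these classes, with a median of 342 bp for Foxn4 alone beside the 486, 658 and 391 bp given above. Counting instead midpoints within 500 bp of a start, which does not use the width, gave odds ratios of 2.29 against Rfx3 alone and 12.7 against Foxn4 alone. At gene ends with the same factors, 631 of 783 regions (80.6%) met a window, as gene ends include the starts. Among all 564 regions, those at start windows included, 72 (12.8%) had a midpoint at most 1 kb from the end of some gene that does not code for protein.

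**Figure D4:**
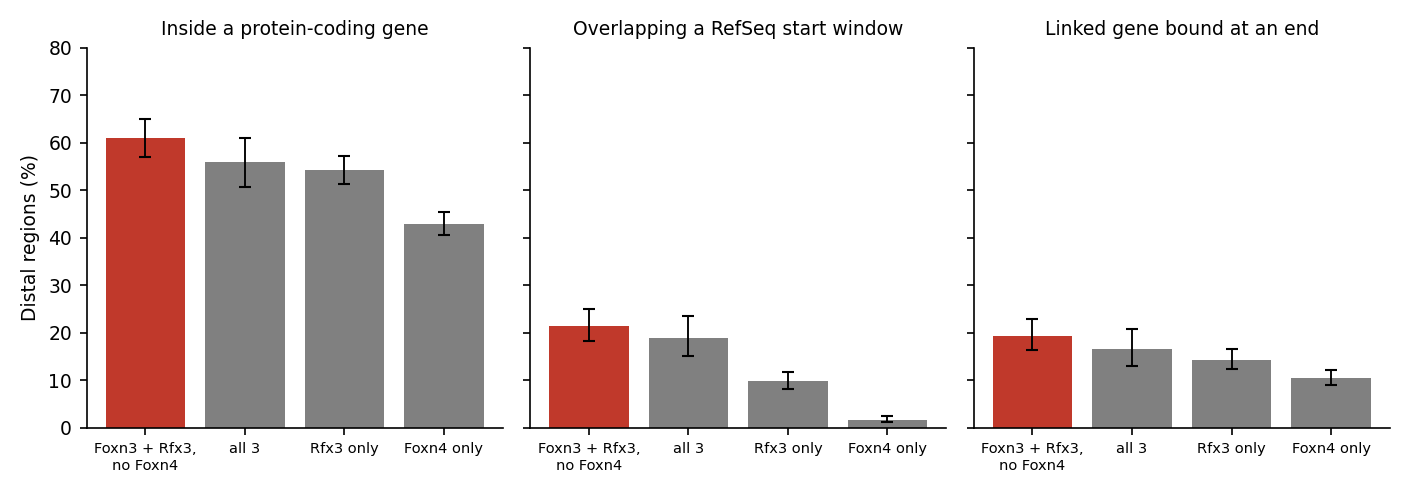
Share of distal regions in percent (bars, with 95% Wilson intervals for counting error) whose midpoint is inside a protein-coding gene, that overlap a RefSeq start window, or whose linked gene has a Foxn3 or Rfx3 region at an end, for the 564 regions (red, 547 in the middle panel) and 3 other distal classes (grey). The red bars stand at 61.0%, 21.4% and 19.3%, with no detected difference from distal regions with all 3 factors at the 1 kb limit drawn (over 5 kb from gene ends the start window share did differ, odds ratio 1.95).

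The position of the peaks around these starts is given as a description, since the overlap with a window that reaches 250 bases before and 50 after a start already places them close to it and leans upstream. The Foxn3 midpoint lay a median of 57.5 bp upstream of the nearest start (quartiles 140 bp upstream and 21.5 bp downstream), and within 200 bp in 94 of 117 regions (80.3%). For Rfx3 the median was 68 bp upstream (169 bp upstream to 46 bp downstream) and 89 regions (76.1%) were within 200 bp. Regions with and without a start window had similar ranks, with median percentiles of 67.2 and 63.0 for Foxn3 and 75.0 and 73.8 for Rfx3. Those at starts were broader (median 544 bp against 472 bp) and more of them lay inside a gene (76.1% against 56.7%). By the mean of the ranks of both peaks, 13 of 27 regions under percentile 25 met a start window, 19 of 88 from 25 to 50, 38 of 240 from 50 to 75, and 47 of 192 above. The other 430 regions met no start window, and their letters were not examined because only start sequences were used here. Windows of some coding genes were absent, so a region without a window may still lie at a start. The region inside Tmem67, for example, was 1003195 bp from the nearest start with a window, far outside that gene.

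In the start windows the X-box letters were common. A GTTGCC on either strand was present in the nearest start window of 45 of 117 regions (38.5%, 30.1% to 47.5%), against 12.5% of all 32851 RefSeq start windows. The share was 17.5% at distal regions with all 3 factors (11 of 63, odds ratio 2.95, 1.40 to 6.25, Fisher's exact test, adjusted p = 0.0484 over 12 motif tests), and with matches inside the merged region only the adjusted p was 0.0382. At distal regions with Rfx3 alone it was 36.4% (36 of 99, odds ratio 1.09, 0.629 to 1.90, Fisher's exact test, adjusted p = 1.0), and at those with Foxn4 alone 12.5% (3 of 24, odds ratio 4.38, 1.23 to 15.5, adjusted p = 0.0684, or odds ratio 13.9 and adjusted p = 0.00799 with matches inside the region only). Gene-end windows bound by Foxn3 and Rfx3 without Foxn4 held it in 35.7% of 631 cases. Median GC content was 58.7% in the windows of the 117 regions, 62.0% with all 3 factors, 57.7% with Rfx3 alone and 52.7% over all windows; the part of GC content and of the lower Rfx3 ranks with all 3 factors was not tested.

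Paired X-box sites, which can share letters with GTTGCC, were counted only in the exact form given above. They were found in 23 of the 117 windows (19.7%, 13.5% to 27.8%), against 3.86% of all start windows. The share was 7.94% with all 3 factors (odds ratio 2.84, 1.02 to 7.88, Fisher's exact test, adjusted p = 0.154), 19.2% with Rfx3 alone (odds ratio 1.03, 0.524 to 2.03) and 0 of 24 windows with Foxn4 alone (Wilson upper limit 13.8%, adjusted p = 0.0684), so none of the 3 comparisons passed. Of the 62 GTTGCC matches, 60 lay inside the merged region, a median of 60.2 bp from the Foxn3 midpoint and 66 bp from the Rfx3 midpoint. Of the 24 paired matches 23 lay inside, at medians of 48.2 and 71.5 bp. Only windows that overlap a region were searched, which by itself places most matches inside and near the midpoints. These positions are therefore a description and no finding. For the FOXN core GACGC, 63 of 65 matches lay inside, at medians of 75 and 88 bp.

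For the letters known for forkhead factors no difference between distal classes was detected. GTAAACA on either strand occurred in 3 of 117 windows (2.56%, 0.876% to 7.27%), against 3.65% of all start windows. The FOXN core GACGC was present in 50 (42.7%, 34.1% to 51.8%), against 27.2% of all windows, 42.9% with all 3 factors, 37.4% with Rfx3 alone, 54.2% with Foxn4 alone and 57.2% at gene ends with the same factors. None of the 6 comparisons of these letters between distal classes passed (Fisher's exact test, lowest adjusted p = 0.887). Intervals for GACGC were wide. The odds ratios were 0.995 (0.536 to 1.85) against all 3 factors, 1.25 (0.723 to 2.16) against Rfx3 alone and 0.631 (0.261 to 1.53) against Foxn4 alone. A match is a description of the letters in a window and not evidence of a contact.

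**Figure D5:**
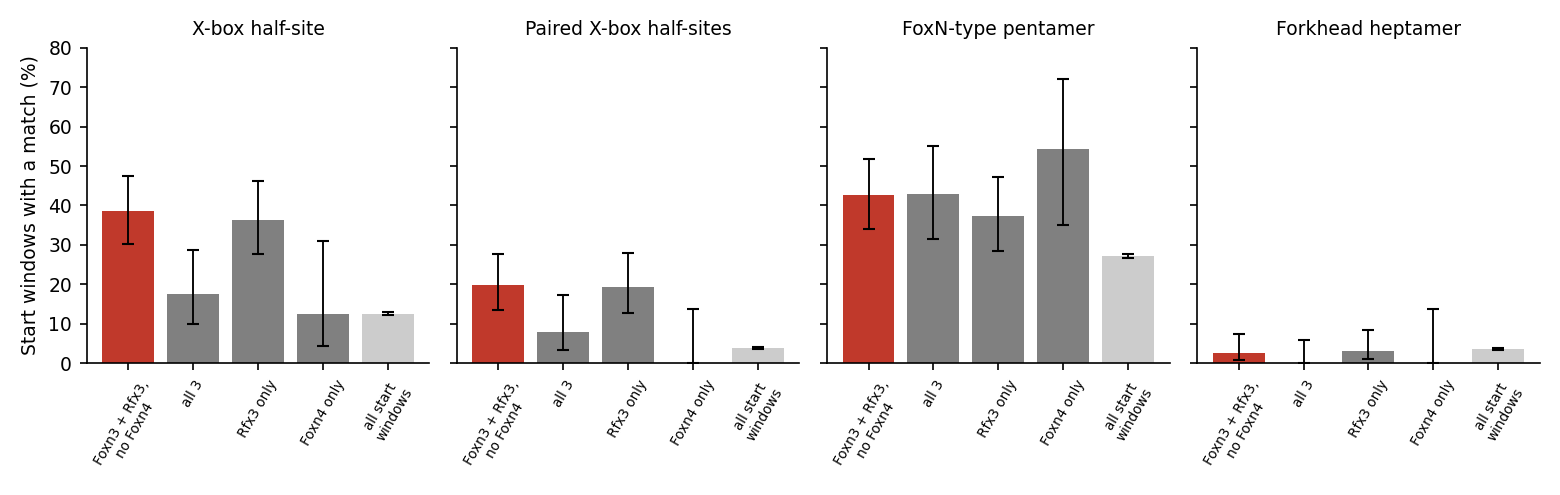
Share of start windows in percent that hold each motif on either strand (bars, with 95% Wilson intervals for counting error), for windows overlapped by the 117 regions with Foxn3 and Rfx3 and no Foxn4 (red), by other distal classes (dark grey) and for all 32851 RefSeq start windows (light grey). GTTGCC was present in 38.5%, 17.5%, 36.4%, 12.5% and 12.5% of these, in the order drawn, and the forkhead heptamer in 2.56% of the red set.

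The highest-ranking region for both factors lay inside Mast3, a microtubule-associated serine/threonine kinase gene, at chr8:70792240-70793377. It had a Foxn3 score of 513 (percentile 99.5) and an Rfx3 score of 2545 (99.9), the highest Rfx3 score of all 564, and it overlapped an internal start of Mast3. A second region in the same gene had scores of 19.6 and 121. Inside Ppp1r32, named as a protein phosphatase regulatory subunit gene, the scores were 667 and 1205, again at an internal start (chr19:10482508-10483171). A region in Srf (chr17:46552604-46553555), the gene of serum response factor, which drives cytoskeletal and immediate early genes, had 680 and 1123, the highest Foxn3 score of the set.

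A region in Dlg4, which encodes the postsynaptic scaffold PSD-95, had scores of 269 and 2280 (chr11:70029106-70030205). Near Kif1a, a kinesin that carries synaptic vesicle precursors, a region with scores of 204 and 1258 lay 13212 bp from the gene end and over the start of the lncRNA Gm36472 printed above. Trim2, a ubiquitin ligase gene of neurons, held a region with 239 and 776. The remaining regions of the highest 12 were in Pnmal1 (357 and 1071), Rfx2 (353 and 766), Ssbp4 (246 and 1250) and Trp53bp1, a DNA damage response gene (190 and 1032, over an internal start), and near Slc28a3, a nucleoside transporter gene (396 and 602), and Upk2, a uroplakin gene (259 and 691). Of these 12, 9 lay inside a gene and 4 met a start window. The score ranks chose these 12, so their height is no finding.

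Of the 95 motile cilium genes matched, 12 were linked to a region (12.6%), beside 530 of all 21887 protein-coding genes (2.42%). Linking every region to the gene with the nearest end gave 8 motile cilium genes, and regions over 5 kb from gene ends gave 5. Here and for the lists below, the share over all genes is not given at such other settings. All 12 regions lay inside their gene, 9 of them met a start window, and the median of their mean percentiles was 86.9. Only 1 of the 12 genes, Dnah11, also had a Foxn3 or Rfx3 region at an end. These counts are descriptions, with no test, of lists that were made with earlier results of these data known.

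The motile cilium genes included several parts of the axoneme. Ttll9, a tubulin tyrosine ligase-like gene, had scores of 167 for Foxn3 and 415 for Rfx3. Cfap161, a cilia and flagella associated gene, had 196 and 342, and Tekt4, which encodes a tektin of ciliary microtubules, had 174 and 295. At Meig1, a spermiogenesis gene, the scores were 198 and 276, and at Ak7, an adenylate kinase of motile cilia, 147 and 275. All 5 of these regions met an internal start of the named gene. Cfap54, of the central apparatus, had 80.4 and 489 without a start window. Dnaic2, an outer dynein arm intermediate chain gene, had 89.7 and 124, Cfap74 107 and 259, Cfap221 45.8 and 85, and Dnaaf2, which helps to assemble dyneins, 47.7 and 152, each at a start. The lowest ranks were in Spag1 (32.7 and 63) and in Dnah11, a dynein heavy chain gene (27.1 and 25), neither at a start window.

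Of 120 genes of the primary cilium, 9 were linked to a region (7.50%, beside 2.42% of all protein-coding genes), and 5 over 5 kb from gene ends. Of the 9 regions, 8 lay inside the gene and 5 met a start window, and 4 of the genes also had Foxn3 or Rfx3 at an end. Cep41, needed for glutamylation of ciliary tubulin, had scores of 220 and 457 at chr6:30693428-30694644. Tmem67, a membrane protein gene of the ciliary transition zone, had 128 and 524 at chr4:12087667-12088646 and was also bound at an end. Among intraflagellar transport genes, Ift74 had 73.8 and 506, Kif3a (a subunit of the kinesin-2 motor) 111 and 80, and Kifap3 (its associated protein) 17.8 and 35, all at starts. The Kif3a region met starts of both Kif3a and the lncRNA A430108G06Rik.

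Tctn2 and Nphp4, also of the transition zone, ranked lower: Tctn2 had 42.1 and 192 and Nphp4 had 15.9 and 93, the latter 62512 bp outside the gene. Iqce, which acts in ciliary Hedgehog signalling, had 83.2 and 108. Lca5, which encodes lebercilin and is mutated in a childhood retinal dystrophy, had 17.8 and 62 at chr9:83440886-83441371, low in both lists (percentiles 23.4 and 41.2), yet its window held the paired site shown above.

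Transcription factors of the RFX and FOXN families were themselves among the linked genes. In a list of 28 regulators of ciliation, 5 genes were linked to 6 regions (17.9% of the genes, beside 2.42% of all protein-coding genes). Over 5 kb from gene ends 2 of these genes were linked. Rfx2, a close relative of Rfx3, held 2 regions, at chr17:56814349-56814950 (scores 353 and 766) and chr17:56810205-56810734 (102 and 479), and also had a region at an end. Rfx3 itself held a region at an internal start, 3608 bp from the gene end (57.0 and 108, chr19:28010822-28011300). Foxn2 had a region 4114 bp outside the gene (43.0 and 151), and Foxn3 a region in its body (27.1 and 65).

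Among 41 genes of retinal progenitors 5 were linked (12.2%), and 3 with peaks at or above the median score. Nr2f2, an orphan nuclear receptor gene, had scores of 84.1 and 550 (chr7:70361224-70361962), and Sox9, of progenitors and Müller glia, 51.4 and 196 at 194800 bp from the gene. Casz1, a zinc finger gene, had 40.2 and 176, and Six3, an eye field homeobox gene, 27.1 and 299 at an internal start (chr17:85620594-85621209). Ccnd1, the cyclin D1 gene, had 57.9 and 36 at 1696 bp. Of 64 genes for retinal neuron fates 1 was linked (1.56%), a share near the 2.42% of all genes: Irx5, a homeobox gene of bipolar cells, by a region over the start of the lncRNA Crnde (37.4 and 144).

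Notch and Hedgehog genes gave 4 of 46 (8.70%), all on the Notch side: Notch4, a receptor, with 34.6 and 199, Lfng, a modifier of Notch receptors, with 54.2 and 61, and the coactivators Maml3 (25.2 and 86) and Maml2 (15.9 and 53). All 4 regions lay inside the gene, none met a start window and none of the genes was bound at an end. Over 5 kb from gene ends 2 of the 46 genes were linked, and with peaks at or above the median score 1. Centrosome and microtubule genes gave 7 of 68 (10.3%) with 8 regions, 2 of them in Mast3, and 4 genes over 5 kb from gene ends. Besides Mast3 and Kif1a, they were Tuba1a (60.7 and 257) and Tubb3 (34.6 and 142), tubulin genes of neurons, Map1b (47.7 and 123), a microtubule binding protein gene of axons, Odf2 (31.8 and 107), of centriole appendages, and Map4, whose region stood at percentiles 1.8 and 3.3, the lowest of the 8. Ribosomal protein genes, kept for comparison, gave 2 of 76 (2.63%), a share near the 2.42% of all genes. They were Rplp1 with 27.1 and 148 and Rpl22 with 26.2 and 70. Gene length, which bears on whether a gene can hold a region over 1 kb from its ends, was not matched between lists. Its part in these shares was not tested.

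Few genes had several regions. Of the 530 linked genes 36 had at least 2, and 1 had 3. That gene was Socs3, an inhibitor of cytokine signalling through JAK and STAT proteins. Its 3 regions all lay outside the gene on chromosome 11, 2713, 16089 and 26033 bp from its nearest end, with Foxn3 scores of 99.1, 44.9 and 62.6 and Rfx3 scores of 672, 160 and 262, and Socs3 was also bound at an end.

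At starts of lncRNAs the highest-ranking regions, after the one at Gm36472, included 1700086L19Rik near Dbpht2 (scores 255 and 441), Gm34655 in Ulk4 (233 and 402), 1700064M15Rik near Efcab11 (114 and 746), Gm11767 in Baiap2 (84.1 and 722) and Gm40125 in Cdc14a (92.5 and 465). In Ulk4, Baiap2 and Cdc14a the region also met a start of the coding gene, and the lncRNA's gene end lay 236, 114 and 83 bp from the midpoint. Of the 117 regions at starts, 8 met start windows of both strands.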

How the data were processed

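CUT&RUN for Foxn3, Foxn4 and Rfx3 in embryonic day 16 CD-1 retina was analysed from 3 peak lists, 1 per antibody. Each gives a position and a score per peak, the authors' own value, whose scaling is not stated in the sources used here. Coordinates are mm10, per the file headers. The submitters' processing notes name cutadapt, Bowtie2, UMI-tools, bedtools and SEACR, with no version or setting used here, and how libraries and IgG controls entered a list is not stated. Scores were used only as ranks within a list. No column lacked a match (0).

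Peaks overlapping by 1 bp were merged, and genes and start windows (300 bp) came from RefSeq, GRCm38.p6. No start window was used on the chromosome that holds 17 of the regions, and windows of some genes on other chromosomes were absent. Shares have 95% Wilson intervals, and classes were compared by two-sided Fisher's exact tests with Benjamini-Hochberg adjustment over 3 comparisons (12 for motifs), with a threshold of 0.05. Scripts used Python 3.11.15, numpy 2.4.6, scipy 1.17.1 and pandas 2.3.3 and were tested on simulated data. Motifs had been planned for whole regions, but only start windows were searched, since no genome was used here. The start window comparison and this motif search were added after the lists were seen. Members and gene lists were chosen with earlier results of these data known. Named regions were the 12 highest by mean percentile, those linked to ciliation regulators (1 is not reported here), up to 6 per other gene list, genes with 3 or more regions, the 3 on each side of the 1 kb limit and up to 6 at lncRNA starts. Further ciliary and other list members were named after their values were seen.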

Additional observations from a re-analysis of the deposited data

How the results depend on the processing

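The number of regions ranged from 384 (over 5 kb from gene ends) to 627 (over 500 bp) over 7 other settings, against 564. Keeping peaks at or above the median score gave 400, counting ends of every gene type 492, and requiring no Foxn4 peak within 1 kb 557. The 400 are not simply a part of the 564. Lists were cut before merging, so a region whose Foxn4 peak scored below the median could count as without Foxn4. No change of setting turned the direction of a difference that had passed its threshold, and the cause of the following changes was not tested. With peaks at or above the median score, the odds ratio for lying inside a gene was 1.25 against Rfx3 alone (Fisher's exact test, here and below, adjusted p = 0.148) and 0.833 against all 3 factors. That for a linked gene bound at an end was then 1.23, 1.74 and 0.959 against Rfx3 alone, Foxn4 alone and all 3 factors, and that for start windows 0.656 against all 3 factors and 6.84 against Foxn4 alone. Over 5 kb from gene ends, the odds ratio for lying inside a gene was 1.08 against Rfx3 alone (exact test, adjusted p = 0.539) and that for start windows 1.95 against all 3 factors (adjusted p = 0.00741). Over 500 bp, a linked gene bound at an end had 1.30 against Rfx3 alone (exact test, adjusted p = 0.131). With ends of every gene type, start windows had 0.950 against all 3 factors. Without regions at start windows, chosen after seeing the data, lying inside a gene had 1.18 against Rfx3 alone. With matches inside the region only, also chosen then, GTTGCC had 13.9 against Foxn4 alone (exact test, adjusted p = 0.00799), paired sites 0.975 against Rfx3 alone and GACGC 1.03 against all 3 factors. Of the linked gene counts 52 stayed within 1.5 times and 12 did not. Among the 12, over 5 kb from ends, motile and primary cilium genes numbered 5 each, regulators 2 and Notch and Hedgehog genes 2. With peaks at or above the median score, Notch and Hedgehog genes numbered 1. The share over all genes is not given at these settings. No paired analysis was possible because each antibody has 1 list that does not separate its libraries, and for the same reason no library could be left out. The planned motif window of 100 bp around midpoints was not run.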
